A study of Mus musculus with 6 samples.

Results

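Basement membrane genes were followed in mouse hepatic stellate cells, which lie beside the liver sinusoids, store vitamin A and make scar matrix once activated. The 10 genes were taken by symbol: Col4a1, Col4a2, Col4a5 and Col4a6 for collagen IV, Lama5, Lamb1 and Lamc1 for laminin, Nid1 and Nid2 for the nidogens, and Hspg2 for perlecan. All 10 were among the 13341 genes of the deposited table, and all 10 were among the 10540 genes tested, those with a normalized count of at least 10 in at least 3 libraries. Messenger RNA was read from the 3' end in 3 libraries labelled Nbr1 knock-out (Nbr1KO) and in 3 labelled wild type (WT). NBR1, like p62 (gene symbol Sqstm1), is a receptor that delivers cargo to autophagosomes. Cells of both groups grew for 4 days in medium with 10% fetal bovine serum under basal conditions, with no treatment. The labels give neither the strain, age and sex of the mice nor the way the Nbr1 allele was made, and they do not say whether the 3 replicates of a group came from separate animals. The p-values therefore measure the spread between these libraries, part of which may be technical.

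The basement membrane is a thin sheet of matrix under epithelia and endothelia and around muscle, fat and glial cells. Laminin, a cross-shaped trimer of 1 alpha, 1 beta and 1 gamma chain, forms a first network on the cell surface, and collagen IV, a triple helix of alpha chains, forms a second, covalently crosslinked one. Nidogens and the heparan sulfate proteoglycan perlecan join the networks. In the healthy liver sinusoid the matrix is sparse and has no continuous basement membrane, and the deposition of collagen IV and laminin by activated stellate cells in the space of Disse is known as capillarization.

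Recovered reads came to between 1648800 and 2276529 per Nbr1KO library and between 1508518 and 2383879 per WT library. Reads from the 3' end do not check a deletion elsewhere in Nbr1, which had 203.7, 188.2 and 175.6 normalized counts in the Nbr1KO libraries and 204.1, 278.0 and 288.7 in the WT libraries (adjusted p = 0.220). Sqstm1, which most mouse tissues express, had 817.4, 644.6 and 859.1 in the Nbr1KO libraries and 24, 10.9 and 12.7 in the WT libraries. Every direction below rests on the labels. The libraries also split across the labels: Nbr1KO libraries 1 and 3 deviated from their group mean together with WT library 1 (r = 0.45 and 0.70 over the tested genes), and Nbr1KO library 2 together with WT libraries 2 and 3 (r = 0.70 for both). This split was drawn from the data and no label names it. A p-value from a fit with a term for the split is therefore not independent of it and may be too small. Of 13 stellate cell markers, 10 were measured, while Lrat, Reln and Des were not analysed here. The 10 summed to between 17641 and 21983 normalized counts in the Nbr1KO libraries and between 8306 and 11211 in the WT libraries. Col1a1, Dcn, Col1a2 and Vim made up most of that sum in each library, with Col1a1 at 5168.8 to 5728.3 in the Nbr1KO and 2132.3 to 2196.0 in the WT libraries. Of the 10, 5 rose and 0 fell (limma adjusted p under 0.05), against 4.67% and 2.25% of all tested genes. Cygb and Vim overlapped between the labels. Of 10 endothelial markers only Kdr and Egfl7 were measured, at a sum of 35 to 70 in the Nbr1KO and 35 to 132 in the WT libraries. Of 5 hepatocyte markers 3 were measured, at 9 to 28 in the Nbr1KO and 24 to 32 in the WT libraries.

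Between the labels, 3 of the 10 genes changed. Col4a6 and Lamb1 rose and Lama5 fell in the Nbr1KO libraries (limma on log2(normalized count + 1), adjusted p under 0.05 over all tested genes). Over all tested genes, 6.92% passed the same threshold, 4.67% higher and 2.25% lower. For 6 of the 10 genes the labels did not overlap, against 30.1% of all tested genes. An unadjusted p under 0.05 was found for 6 of the 10, against 22.6% of all tested genes. Without WT library 1, 6 of the 10 genes passed, 4 higher and 2 lower, against 21.1% of all tested genes in the same fit. The median log2 change was 0.39 over the 10 genes and -0.01 over all tested genes. Col4a6 passed the filter on low values only through the Nbr1KO libraries, so its presence among the changed genes follows in part from the filter. Whether an Nbr1KO culture held more cells of one kind or more RNA per cell cannot be told apart in these bulk samples.

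**Figure D1:**
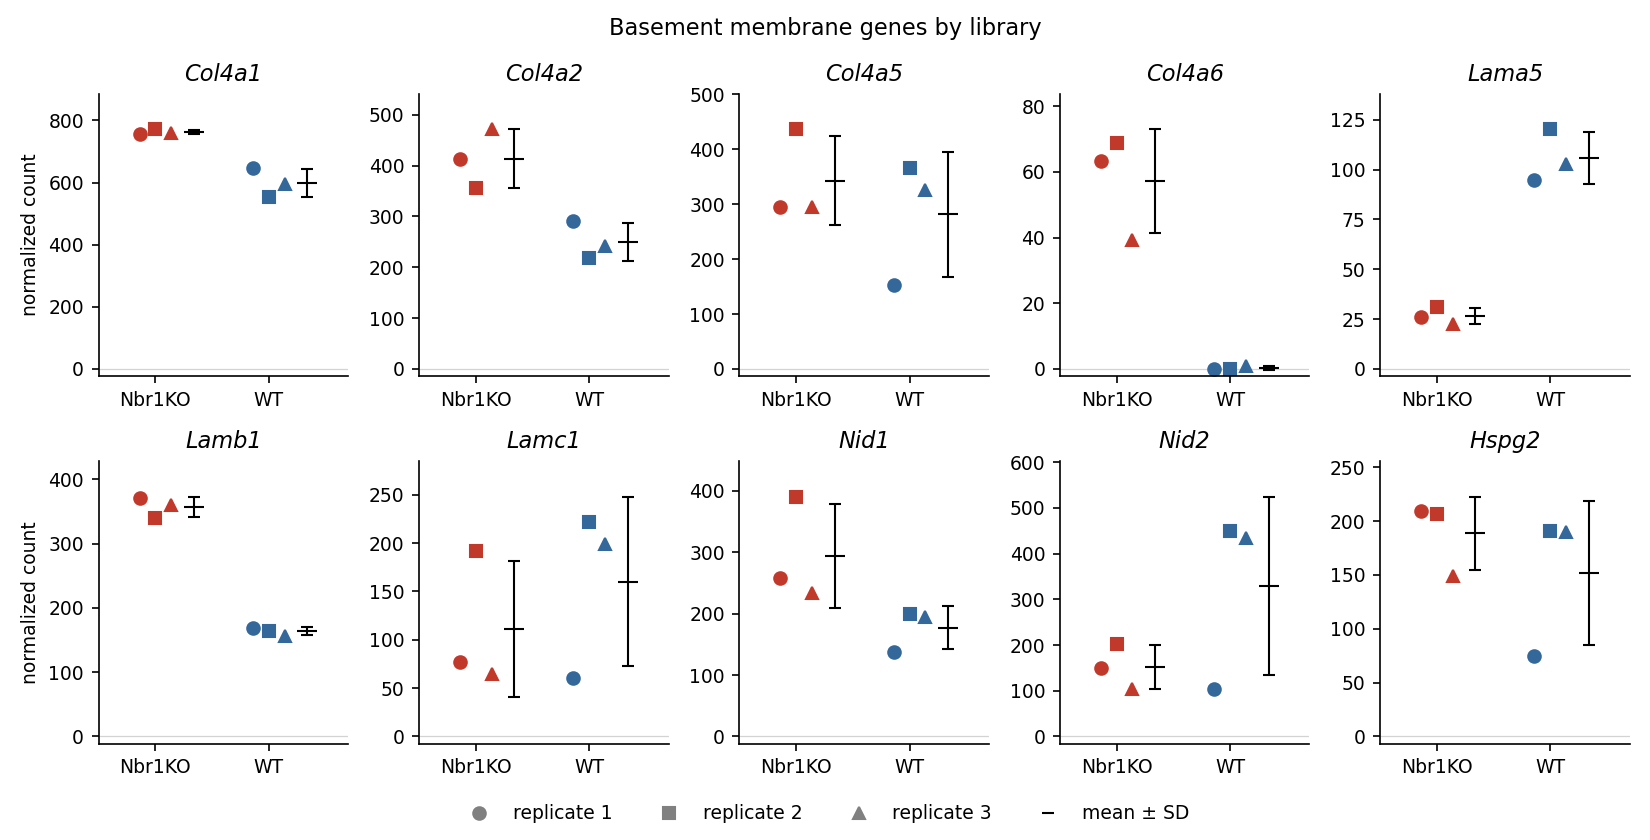
Normalized count (vertical axes, each from 0) of the 10 basement membrane genes in the 3 Nbr1KO libraries (red) and the 3 WT libraries (blue), with the mean ± SD beside each group; symbols mark the replicate number. Col4a6, Lama5 and Lamb1 separate the labels with small spread, while for Lamc1 and Nid2 WT library 1 lies with the Nbr1KO libraries 1 and 3.

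Collagen IV is made from 6 genes that lie head to head in pairs. Col4a1 and Col4a2 encode the chains of the ubiquitous network, and Col4a5 and Col4a6 encode chains of a network known from smooth muscle, Bowman's capsule and skin. Summed over the 4 measured members, collagen IV stood at 1530, 1632 and 1565 normalized counts in the Nbr1KO libraries and at 1089, 1139 and 1162 in the WT libraries, so the groups did not overlap. Col4a1 was the largest term of the collagen IV sum, and a 3' read count does not grow with transcript length. The other 2 planned sums overlapped between the labels. The 3 laminin members summed to 474, 562 and 446 in the Nbr1KO and 324, 506 and 459 in the WT libraries. The nidogen and perlecan members summed to 616, 799 and 488 in the Nbr1KO and 316, 839 and 819 in the WT libraries.

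Col4a1 had 757.7, 770.9 and 759.4 normalized counts in the Nbr1KO libraries, against 645.7, 554.3 and 593.8 in the WT libraries. All 3 Nbr1KO values lay above all 3 WT values, but the ratio of means was 1.28, and the test was not passed (log2 change 0.35, SE 0.12, adjusted p = 0.135). Col4a2, its partner in the same triple helix, had 413.7, 356.7 and 471.1 in the Nbr1KO libraries and 290.8, 218.3 and 241.5 in the WT libraries. It too separated the groups, at a ratio of means of 1.65, and it missed the threshold narrowly (log2 change 0.72, SE 0.17, adjusted p = 0.0565). Without WT library 1 both passed, Col4a1 at a log2 change of 0.41 (adjusted p = 0.0293) and Col4a2 at 0.84 (adjusted p = 0.0106). Leaving out any other library, neither did, with adjusted p from 0.252 to 0.401 for Col4a1 and from 0.0855 to 0.231 for Col4a2. Col4a2 also passed with DESeq2 (adjusted p = 0.0243), which called 9.02% of all tested genes. Col4a1 and Col4a2 lie on chromosome 8, where the median log2 change of 578 tested genes was 0.20.

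Col4a6 had the largest change of the 10 genes. It had 63.4, 68.8 and 39.2 normalized counts in the Nbr1KO libraries, from 183 reads, and 0, 0 and 0.9 in the WT libraries, from 1 read. In the WT libraries the gene was at the limit of detection, and in the Nbr1KO libraries it was plainly detected in each one. The read ratio per library scale was 179 (exact 95% interval 31.7 to 7105, counting error only), and the fitted log2 change was 5.51 (SE 0.42, adjusted p = 0.00101). Col4a5, its genomic neighbour, was abundant under both labels, at 295.1, 435.7 and 295.5 in the Nbr1KO libraries and 152.1, 366.2 and 325.9 in the WT libraries. Its groups overlapped, and it did not pass (log2 change 0.35, SE 0.35, adjusted p = 0.632). Without WT library 1, the lowest of the 6, the value was -0.04. With a term for the library split, which was drawn from these data, it was 0.64 and under the threshold (adjusted p = 0.0125).

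The remaining pair, Col4a3 and Col4a4, encodes chains best known from the glomerulus and was too low to be tested. Col4a3 had 13 reads over the Nbr1KO libraries and 0 over the WT libraries, at least 4.24-fold higher when the WT sum is set to 3 reads. Col4a4 had 14 reads over the Nbr1KO and 6 over the WT libraries, with overlapping values. Col4a5 and Col4a6 lie on the X chromosome, where the median log2 change of 334 tested genes was -0.14. Of the 4 Y-linked genes measured, Ddx3y, Kdm5d and Eif2s3y overlapped between the labels, with Ddx3y at 173.8 to 212.3 normalized counts in the Nbr1KO and 138.8 to 183.9 in the WT libraries. The exception was Uty, with 106 reads over the Nbr1KO libraries and 1 over the WT libraries.

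The sequences around the start sites of the collagen IV pairs are shown because in 1 pair neither gene passed the test and in the other only Col4a6 did. Reads from the 3' end do not show which start was used, and a link between these sequences and the calls was not tested. RefSeq windows of 300 bases, 250 before and 50 after an annotated start, were given for 8 of the 10 genes on build GRCm38.p6, which is not the build named for the reads. The start sites of Col4a1 and Col4a2 lay 21 bases apart on opposite strands, and their windows shared 78 bases. Each start lay inside the transcribed stretch of the partner, so the annotated transcripts overlap at their 5′ ends. The start sites of Col4a5 and Col4a6 lay 1343 bases apart on opposite strands, pointing away from each other, and their windows shared none. The windows below run 5′ to 3′ on the strand of the gene, and capitals mark the GC box letters GGGCGG, searched on both strands.
Col4a1, chr8:11312777-11313076, minus strand: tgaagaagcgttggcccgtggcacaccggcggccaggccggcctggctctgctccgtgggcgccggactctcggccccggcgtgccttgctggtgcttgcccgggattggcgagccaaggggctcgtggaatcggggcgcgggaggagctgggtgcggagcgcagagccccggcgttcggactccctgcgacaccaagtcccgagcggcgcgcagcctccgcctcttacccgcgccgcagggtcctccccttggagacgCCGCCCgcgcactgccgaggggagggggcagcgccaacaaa
Col4a2, chr8:11312555-11312854, plus strand: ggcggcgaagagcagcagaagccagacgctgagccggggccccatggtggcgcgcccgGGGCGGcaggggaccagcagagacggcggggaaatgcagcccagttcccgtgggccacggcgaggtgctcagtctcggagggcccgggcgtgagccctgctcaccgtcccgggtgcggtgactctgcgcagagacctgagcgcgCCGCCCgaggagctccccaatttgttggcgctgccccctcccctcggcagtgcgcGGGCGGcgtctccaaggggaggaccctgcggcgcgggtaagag
Col4a5, chrX:141475169-141475468, plus strand: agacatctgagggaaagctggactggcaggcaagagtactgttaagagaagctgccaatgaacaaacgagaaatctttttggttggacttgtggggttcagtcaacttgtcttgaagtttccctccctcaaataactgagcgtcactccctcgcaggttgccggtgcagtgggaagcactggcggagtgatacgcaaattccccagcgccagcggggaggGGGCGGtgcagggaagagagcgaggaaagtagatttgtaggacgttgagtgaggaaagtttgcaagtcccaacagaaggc
Col4a6, chrX:141474027-141474326, minus strand: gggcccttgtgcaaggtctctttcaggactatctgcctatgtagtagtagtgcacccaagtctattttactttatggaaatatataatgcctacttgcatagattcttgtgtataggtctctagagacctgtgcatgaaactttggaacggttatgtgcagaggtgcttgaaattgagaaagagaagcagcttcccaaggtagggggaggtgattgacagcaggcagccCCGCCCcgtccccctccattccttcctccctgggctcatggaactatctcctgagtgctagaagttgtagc
The GGGCGG letters occurred at 1 site in the Col4a1 window, 3 in Col4a2, 1 in Col4a5 and 1 in Col4a6. The Col4a1 site lies in the shared bases and is the last Col4a2 site read on the other strand. Of all 32851 windows, 35.7% held at least 1 site. None of the 4 windows held TATAAA on either strand, which 13.6% of all windows did. CCAAT, on either strand, occurred once each in the Col4a1, Col4a2 and Col4a5 windows and not in that of Col4a6, against 37.4% of all windows. The pairs differed in base composition. The Col4a1 and Col4a2 windows held 37 and 33 CG pairs, at 74.0% and 73.7% G and C, and the Col4a5 and Col4a6 windows 11 and 3, at 52.7% and 48.3%. The median over all windows was 7 CG pairs and 52.7%. Among the other members with a window, Lama5 held 4 GGGCGG sites and 24 CG pairs, Lamb1 2 and 18, Nid1 1 and 20, and Hspg2 5 and 27.

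The laminin genes moved in different directions. Lama5, which encodes the alpha 5 chain of many epithelial and endothelial basement membranes, fell to 26.3, 30.9 and 22.5 normalized counts in the Nbr1KO libraries, against 94.7, 120.1 and 102.6 in the WT libraries. The highest Nbr1KO value was below the lowest WT value by a wide margin. The mean was 3.98-fold lower in the Nbr1KO libraries (26.6 ± 4.21 against 105.8 ± 13, SD, n = 3 each, log2 change -1.96, SE 0.21, adjusted p = 0.00304). On chromosome 2, where it lies, the median log2 change of 822 tested genes was -0.10. Lama4, a listed partner outside the 10 members that encodes the alpha 4 chain of endothelium, muscle and other mesenchyme-derived cells, went the other way. It had 76.9, 67.0 and 105.6 in the Nbr1KO libraries and 1.3, 0 and 2.7 in the WT libraries, from 252 and 4 reads. The read ratio per library scale was 61.6 (exact 95% interval 23.8 to 228, counting error only), 157 without WT library 3 (28.0 to 6232) and 37.5 without WT library 2 (14.5 to 139). The gene passed the test (log2 change 5.33, SE 0.51, adjusted p = 0.00211), but like Col4a6 it passed the filter only through the Nbr1KO libraries. Lama1, the alpha chain of the early embryo, was too low to be tested, with 14 reads over the Nbr1KO libraries and 0 over the WT libraries (at least 4.56-fold higher). Lama2 and Lama3 were not analysed here.

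The summed alpha chain level did not separate the labels. Lama1, Lama4 and Lama5 together had 105.0, 100.6 and 138.8 normalized counts in the Nbr1KO libraries and 96.1, 120.1 and 105.3 in the WT libraries. What differed was the composition. Lama4 made up 73.3%, 66.7% and 76.1% of these reads in the Nbr1KO libraries (exact 95% intervals within 57.4% to 83.5%) and 1.39%, 0% and 2.59% in the WT libraries (upper bounds of 2.55% to 7.50%). This share was chosen after the values were seen and was not tested. Smooth muscle cells and pericytes also make the alpha 4 chain. Of 9 markers of these cells, 6 were measured, at a sum of 942 to 1113 in the Nbr1KO and 176 to 195 in the WT libraries. Acta2 made up most of that sum (833.7 to 998.5 in the Nbr1KO, 165.4 to 182.8 in the WT libraries). Tagln, Cnn1 and Lmod1 also rose, while Cspg4 and Notch3 were too low to be tested. No WT value of Tagln, Cnn1 or Lmod1 reached 10, so these genes passed the filter only through the Nbr1KO libraries. Myh11, Myocd and Rgs5 were not analysed here. Of 9 mesothelial markers 8 were measured, at 1304 to 1507 in the Nbr1KO and 1748 to 2070 in the WT libraries. Gpm6a was the largest term (771.2 to 846.6 in the Nbr1KO, 913.9 to 1160.3 in the WT libraries). Only Upk3b passed the test, lower in the Nbr1KO libraries (limma adjusted p = 0.0112). Msln went the other way without passing (limma adjusted p = 0.268), and Lrrn4 and Podxl overlapped between the labels. Of 6 markers of cholangiocytes and epithelium 4 were measured, at 571 to 635 in the Nbr1KO and 92 to 112 in the WT libraries. The members of that list differed: Sox9 (467.1 to 496.0 in the Nbr1KO, 10.7 to 21.8 in the WT libraries) and Cdh1 rose, Spp1 fell (27.5 to 33.2 in the Nbr1KO, 69.7 to 78.7 in the WT libraries, adjusted p = 0.0101), and Krt7 overlapped between the labels and was too low to be tested. Only 1 WT value of Cdh1 reached 10, so it too passed the filter through the Nbr1KO libraries. Of 5 portal fibroblast markers 4 were measured, at 830 to 887 in the Nbr1KO and 592 to 889 in the WT libraries. Thy1 and Eln rose (limma adjusted p = 0.00408 and 0.0171), with no WT value of Thy1 at the filter's 10. Fbln2, higher, and Cd34, lower in the Nbr1KO libraries, did not pass (limma adjusted p = 0.121 and 0.186). Macrophage and glial markers each summed to at most 20 in any library. The part of these cell types in the laminin values was not tested.

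**Figure D2:**
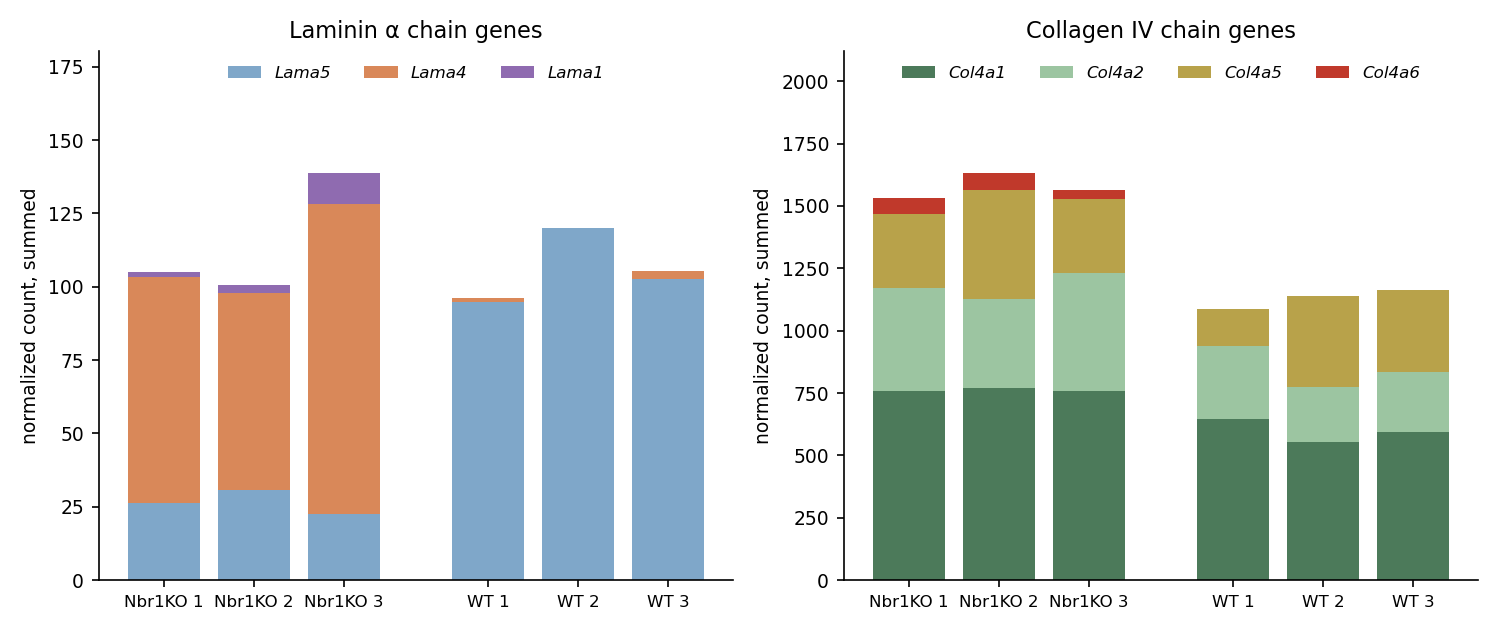
Stacked normalized counts (vertical axes from 0) of the laminin alpha chain genes (left) and the 4 collagen IV members (right) in each Nbr1KO library and each WT library. Lama4 fills most of the alpha chain bar in the Nbr1KO libraries and Lama5 nearly all of it in the WT libraries, at similar summed heights, and Col4a6 is visible only in the Nbr1KO bars.

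Lamb1 encodes the beta 1 chain, which is shared by most laminins of mesenchymal cells. It had 371.1, 339.5 and 359.5 normalized counts in the Nbr1KO libraries, against 169.4, 163.8 and 157.1 in the WT libraries. The spread within each label was small beside the gap between them. The mean was 2.18-fold higher in the Nbr1KO libraries (356.7 ± 16.0 against 163.4 ± 6.19, SD, n = 3 each, log2 change 1.12, SE 0.13, adjusted p = 0.00397). Lamb1 lies on chromosome 12, where the median log2 change of 358 tested genes was 0.32, and the part of that shift in the value was not tested. Lamb2, the alternative beta chain of synapses, glomeruli and vessels, had 296.9, 210.6 and 308.5 in the Nbr1KO and 388.2, 152.0 and 168.9 in the WT libraries. It did not pass (adjusted p = 0.690), though it did without WT library 1 (log2 change 0.74, adjusted p = 0.0353). Leaving out any other library, it did not (adjusted p from 0.572 to 0.957).

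Lamc1 encodes the gamma 1 chain, the partner of nearly all beta 1 chains. Its values were 76.9, 191.7 and 64.1 normalized counts in the Nbr1KO libraries and 60.0, 221.7 and 198.8 in the WT libraries. They followed the library split and not the labels: Nbr1KO libraries 1 and 3 and WT library 1 were low, and the other 3 high (log2 change -0.49, SE 0.60, adjusted p = 0.702). The ratio of Lamb1 to Lamc1 within a library, which does not depend on scaling, was 4.82, 1.77 and 5.61 in the Nbr1KO and 2.82, 0.74 and 0.79 in the WT libraries, so the groups overlapped (exact permutation test, two-sided, p = 0.200). The Col4a1 to Col4a2 ratio was 1.83, 2.16 and 1.61 in the Nbr1KO libraries and 2.22, 2.54 and 2.46 in the WT libraries, lower in all 3 Nbr1KO libraries. Its exact permutation p of 0.10 is the smallest that 3 against 3 allows, and it was 0.150 adjusted over 3 ratios. The Col4a5 to Col4a6 ratio was 4.66, 6.34 and 7.55 in the Nbr1KO libraries and could be formed in only 1 WT library, where Col4a6 had a read (exact permutation p = 0.10 on log2 ratios with 1 added to each value, adjusted 0.150).

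The linkers of the networks did not pass the test. Nid1, which encodes the nidogen that binds the laminin gamma 1 chain and collagen IV, had 258.0, 390.2 and 233.8 normalized counts in the Nbr1KO libraries, against 137.4, 199.9 and 195.2 in the WT libraries. All Nbr1KO values lay above all WT values, at a ratio of means of 1.66 (log2 change 0.71, SE 0.25, adjusted p = 0.154). With a term for the library split, which was drawn from these data, it was under the threshold (log2 change 0.91, adjusted p = 0.000638). Nid2, its paralog with overlapping function, had 149.4, 202.0 and 104.4 in the Nbr1KO libraries and 104.1, 448.5 and 434.0 in the WT libraries. WT library 1 lay at the level of the lowest Nbr1KO library, and the gene did not pass (log2 change -0.89, SE 0.58, adjusted p = 0.436). Without that library it was -1.58 and passed (adjusted p = 0.00769). Leaving out any other library, Nid2 did not pass (adjusted p from 0.414 to 0.750). Hspg2, which encodes the core protein of perlecan, had 209.1, 207.1 and 149.5 in the Nbr1KO libraries and 74.7, 190.6 and 189.8 in the WT libraries. Again WT library 1 stood apart from its group. The log2 change was 0.42 (SE 0.38, adjusted p = 0.597) and was -0.03 without that library.

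Within the library sets the genes fell into groups of unlike stability. Lama5 had a log2 change of -1.92 between Nbr1KO libraries 1 and 3 and WT library 1, and of -1.81 between Nbr1KO library 2 and WT libraries 2 and 3. The same values were 1.10 and 1.08 for Lamb1, 0.60 and 0.63 for Col4a2, and 0.83 and 0.98 for Nid1. For Col4a6 they were 5.67 and 5.66, but with 1 WT read in all the fitted size is set by the added 1 (over all libraries 6.31 with 0.5 added and 3.52 with 5). Each fit leaves 1 library in a group, so no test is given, and for genes whose groups do not overlap the shared sign is fixed in advance. Nid2 and Lamc1 differed in sign between the sets, at 0.26 and -1.12 for Nid2 and 0.22 and -0.13 for Lamc1. Hspg2 stood at 1.23 and 0.12, and Col4a5 at 0.95 and 0.33. Mean log2(normalized count + 1) was also compared between the sets, as Nbr1KO libraries 1 and 3 and WT library 1 minus the other 3. It differed by -1.60 for Lamc1 and -1.52 for Nid2. The labels are not balanced between the sets, so these differences hold part of any change between the labels. With a term for the sets, which were drawn from these data, 7 of the 10 genes passed, against 26.5% of all tested genes. Lamc1, Nid2 and Hspg2 did not.

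**Figure D3:**
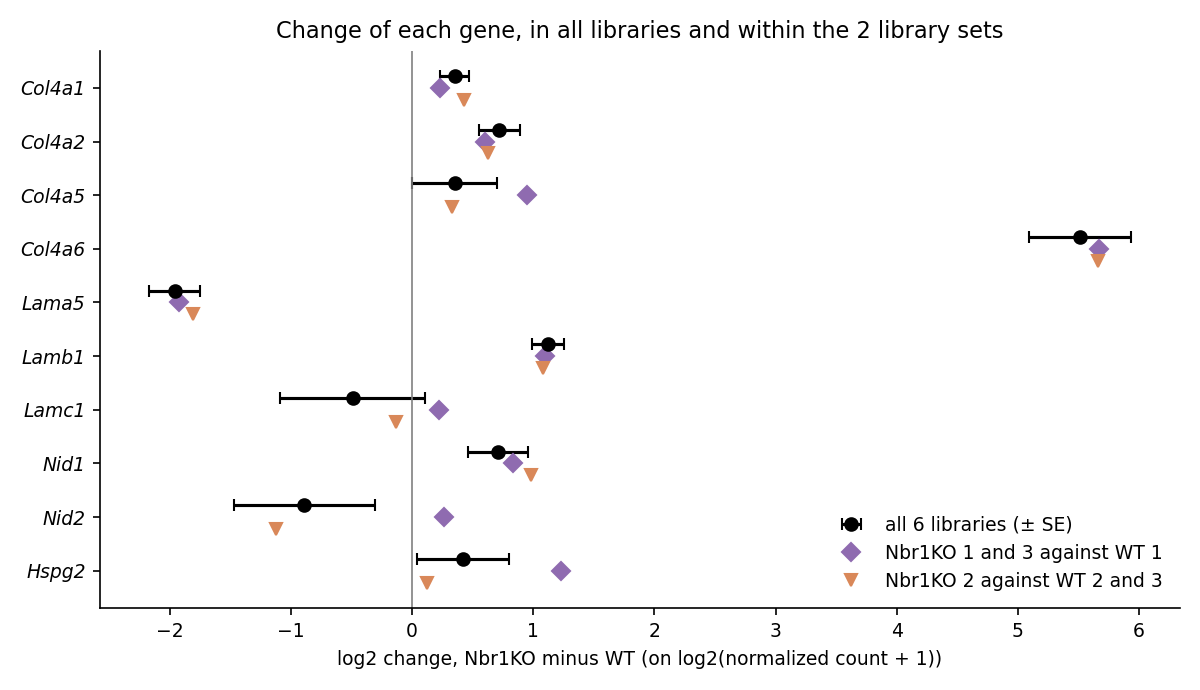
Log2 change of each gene, Nbr1KO minus WT (horizontal axis), over all 6 libraries with its SE (black), and within each of the 2 library sets (purple and orange). Lama5, Lamb1 and Col4a2 have nearly the same value in both sets, and Nid2 and Lamc1 change sign between them.

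The likeness of patterns was described with Pearson's r of log2(normalized count + 1) over the 6 libraries, which share labels and the library split, against all 10539 other tested genes. Predicted models, clone names and pseudogenes were passed over in naming genes. With Col4a1 the nearest named genes were Setbp1 (r = 0.998), Anks6 (r = 0.997) and Nsd3 (r = 0.995, in place 4 of all genes), and its genomic partner Col4a2 was in place 311 (r = 0.945). With Col4a6 they were Zcchc24 (r = 0.998), S100a16 (r = 0.997) and Col8a1 (r = 0.997), a short-chain collagen gene of vessels and the eye, and Col4a5 was in place 3017 (r = 0.429). Lamb1 was in place 134 with Col4a6 (r = 0.979) and Lama4 in place 144 (r = 0.978). Both also rose between the labels, so these r follow in part from that. With Col4a6, r was 0.930 for Col4a1, 0.869 for Col4a2, 0.823 for Nid1 and 0.474 for Hspg2. It was -0.226 for Lamc1, -0.440 for Nid2 and -0.968 for Lama5, in place 10420.

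Other genes of the basement membrane were read from 4 lists. Of 27 further components, 10 were tested, of which 2 rose and 0 fell, against 4.67% and 2.25% of all tested genes, with a median log2 change of 0.43. Besides Lama4 this was Hmcn1, which encodes hemicentin 1, a long matrix protein of the fibulin family. It had 64.3, 59.3 and 57.0 normalized counts in the Nbr1KO libraries and 8.0, 5.9 and 2.7 in the WT libraries, a ratio of means of 10.9 (log2 change 3.32, SE 0.37, adjusted p = 0.00366). No WT value of Hmcn1 reached 10, so both genes that rose passed the filter only through the Nbr1KO libraries, and their count follows in part from it. Agrn, which encodes agrin, averaged 59.6 ± 7.95 in the Nbr1KO and 51.3 ± 2.07 in the WT libraries (SD, n = 3 each, adjusted p = 0.586). Col18a1, which encodes the proteoglycan collagen that holds endostatin, averaged 24.5 ± 1.99 in the Nbr1KO and 23.0 ± 2.19 in the WT libraries (SD, n = 3 each, adjusted p = 0.865). Neither passed the test, although the values of Agrn did not overlap between the labels. Without WT library 1, 4 of the 10 passed, all higher, against 21.1% of all tested genes, with Lamb2 and Sparc, which encodes a collagen-binding matrix protein, added.

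Of 15 genes for folding, export and crosslinking of collagen IV, all 15 were tested and 0 passed in limma or edgeR, which called 6.92% and 7.27% of all tested genes. An unadjusted p under 0.05 was found for 4, near the 22.6% of all tested genes, and 1 passed in DESeq2. That gene was P4ha3, a prolyl hydroxylase subunit gene, at 159.3, 145.2 and 146.0 normalized counts in the Nbr1KO and 34.7, 80.6 and 87.2 in the WT libraries (limma adjusted p = 0.0906, DESeq2 adjusted p = 0.0237). It was named after its values were seen. The list's median log2 change was 0.40. Pxdn, which encodes peroxidasin, the enzyme that forms the sulfilimine crosslinks of collagen IV, averaged 131.9 ± 17.8 in the Nbr1KO and 91.5 ± 12.3 in the WT libraries (SD, n = 3 each, log2 change 0.52, SE 0.19, adjusted p = 0.155). Leaving out WT library 1, 3 of the 15 passed, all higher, near the 21.1% of all tested genes.

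Of 11 receptors for collagen IV and laminin, 7 were tested, of which 1 rose and 0 fell, against 4.67% and 2.25% of all tested genes, with a median log2 change of 0.44. Itga1 encodes the alpha 1 integrin subunit, which binds collagen IV together with beta 1. It had 34.4, 44.7 and 45.1 normalized counts in the Nbr1KO libraries and 14.7, 9.2 and 10.0 in the WT libraries, a ratio of means of 3.66 (log2 change 1.80, SE 0.27, adjusted p = 0.0122). Only 1 of its WT values reached the filter's 10 before rounding. Leaving out any 1 library except WT library 1 ended the call (adjusted p from 0.0554 to 0.0731). Without WT library 1, 3 of the 7 receptors passed, against 21.1% of all tested genes: Itga1 and the collagen receptor gene Ddr2 higher, and its relative Ddr1 lower. Itgb1, the shared beta 1 subunit gene, averaged 969.6 ± 102 in the Nbr1KO and 716.2 ± 93.8 in the WT libraries (SD, n = 3 each, log2 change 0.44, SE 0.15, adjusted p = 0.147). Dag1, which encodes the laminin receptor dystroglycan, averaged 600.6 ± 67.0 in the Nbr1KO and 517.6 ± 150 in the WT libraries (SD, n = 3 each, adjusted p = 0.614).

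Of 14 proteases and inhibitors that act on the basement membrane, 11 were tested, of which 3 rose and 0 fell, against 4.67% and 2.25% of all tested genes, with a median log2 change of 0.54. Mmp3, which encodes stromelysin 1, a protease that cleaves laminin, nidogen and perlecan, had 108.6, 85.9 and 99.7 normalized counts in the Nbr1KO libraries and 12.0, 5.9 and 5.4 in the WT libraries (log2 change 3.57, SE 0.33, adjusted p = 0.00180). Tll1, which encodes a tolloid-like protease, had 18.1, 26.6 and 21.4 in the Nbr1KO and 2.7, 5.9 and 6.4 in the WT libraries (log2 change 2.0, SE 0.38, adjusted p = 0.0258). Only 1 WT value of Mmp3 and none of Tll1 reached 10, so both passed the filter through the Nbr1KO libraries, and the count of 3 follows in part from it. Timp1, which encodes a metalloproteinase inhibitor, averaged 179.4 ± 5.10 in the Nbr1KO and 100.6 ± 4.00 in the WT libraries (SD, n = 3 each, log2 change 0.83, SE 0.14, adjusted p = 0.0168). For Tll1 and Timp1, leaving out any 1 library except WT library 1 ended the call (adjusted p from 0.0616 to 0.120), which left Mmp3 alone. Of the 11, 7 passed without WT library 1, all higher, against 21.1% of all tested genes.

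**Figure D4:**
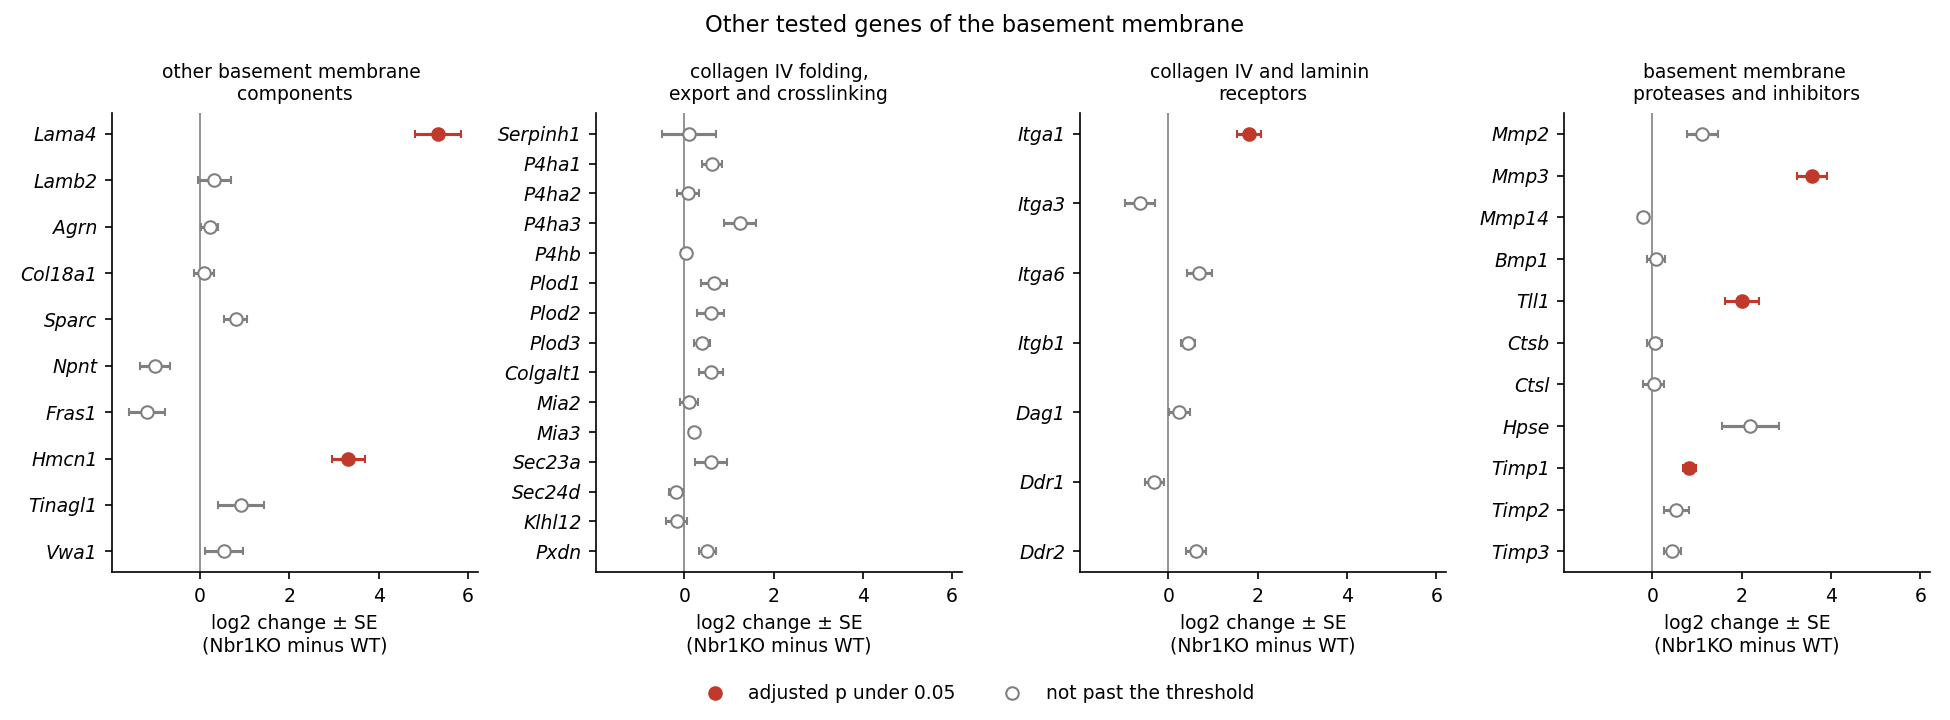
Log2 change with SE, Nbr1KO minus WT (horizontal axes), of the tested genes of 4 lists of basement membrane biology; filled red points passed limma's adjusted p threshold of 0.05. The filled points are Lama4, Hmcn1, Itga1, Mmp3, Tll1 and Timp1, all to the right of 0, and the folding list has none.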

How the data were processed

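RNA libraries were made from 200 ng with a 3' kit and read as single 75-nt reads, per the labels' protocols. The submitters' processing notes name DESeq2 and GRCm39. Aligner, annotation, strand and use of molecular identifiers are not given in the sources used here. Per the file headers and values, the authors deposited normalized counts, a signal scaled by 1 size factor a library. Dividing by the step of 1 read gave whole numbers (tolerance 0.01) for 100% of values. On these recovered reads edgeR's count test called 766 genes, against 729 in the main test. Intervals and floors cover counting error only. The main test was limma 3.58.1 (R 4.3.3) on log2(value + 1) with a trended prior variance, two-sided tests and group as the only term, Benjamini-Hochberg over 10540 genes. Fold changes on that scale understate the change of low genes. Ratios were tested by exact permutation. edgeR 4.0.16, DESeq2 1.42.0, scalings, filters, pseudocounts, a block, library sets and left-out libraries were alternatives. The fit was tested on simulated data. Members, lists, library sets and tests were chosen with earlier results of these data known. Named are the 10 members, called list genes, fixed partners, the 3 nearest patterns (pseudogenes, clones and predicted models aside), and Nbr1 and Sqstm1. Chromosomes and start windows are RefSeq's (GRCm38.p6), matched by symbol for 10396 of the tested genes.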

Additional observations from a re-analysis of the deposited data

How the results depend on the processing

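Col4a6, Lama5 and Lamb1 kept their direction and their call under all alternatives that tested them, 16 for Col4a6 and 17 each for the others. Their adjusted p reached 0.014, 0.0292 and 0.046 at most, each without Nbr1KO library 1. The number of the 10 genes called was 3 in most fits, 2 with a mean of at least 50, where Col4a6 was not tested, and 4 with quantile normalization or DESeq2. It was 7 with a term for the library sets, which were drawn from these data, and between 3 and 6 when 1 library was left out, 6 without WT library 1. Over all tested genes the count of 729 became 380 with a mean of at least 50, where fewer genes are tested, 476 with the replicate block, 2791 with the set term and between 200 and 2228 when 1 library was left out. The share of higher calls, 492 of 729, moved to 1503 of 2791 with the set term and to 1277 of 2228 without WT library 1. The replicate numbers did not pair the libraries: same-numbered libraries deviated together for numbers 1 and 2 (r = 0.45 and 0.70) and oppositely for number 3 (r = -0.62). The block changed no call among the 10 genes. Leaving out 1 library moved the log2 change of Col4a5 between -0.04 and 0.59 and that of Hspg2 between -0.03 and 0.64. Both turned only without WT library 1, and direction also turned for Lamc1 (0.05) with the set term. The cause was not tested. The difference in the log2 ratio of Col4a5 to Col4a6, Nbr1KO minus WT, was -5.16, and it was -5.95 with 0.5 added and -3.17 with 5, since Col4a6 had 1 read over the WT libraries. Depth limits Col4a3, Col4a4 and Lama1, which had 20 reads or fewer.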
